A study of Mus musculus with 6 samples.

Results

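The genes described here are 32 mouse genes that are known targets of the transcription factor p53, or that act beside it in the response to DNA damage, including Trp53 itself. They were chosen by gene symbol, and each of the 32 symbols was found among the 50600 genes of the deposited tables. RNA of whole liver from C57BL/6 mice about 1 month old had been sequenced in 6 libraries. The 3 Dicer LKO libraries came from mice with the genotype Dicerloxp/loxp;Alb-cre, and the 3 control libraries from Dicerloxp/loxp mice without the Cre transgene. Both groups thus carry loxP-flanked Dicer alleles. The albumin promoter drives Cre in hepatocytes, and which other cell types of the Dicer LKO livers keep their Dicer was not measured. Dicer cuts miRNA precursors into mature miRNAs, the short RNAs that lower the level and translation of messenger RNAs, and the comparison asks how liver transcripts differ where hepatocytes have lost it. Values per library are given in the order of replicates 1, 2 and 3.

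p53 is held at a low level by Mdm2, which marks it for destruction, and by Mdm4, which blocks its activity. DNA damage releases p53 from both, and it then switches on genes that stop the cell cycle, repair DNA, restrain growth or start cell death, and it also switches on Mdm2, which closes a feedback loop. In liver the pathway is best known from regeneration, from oxidative and genotoxic injury and from tumour suppression, and much of its control is exerted on the p53 protein, which RNA sequencing does not measure.

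The libraries held 22257541 to 25049749 expected counts in Dicer LKO and 14141973 to 22152506 in controls. CPM below is a gene's count scaled by library size and TMM factor, and each log2 fold change sets Dicer LKO over control. Dicer1 was at 28.9, 31.2 and 24.4 CPM in Dicer LKO livers, against 42.5, 69.3 and 56.1 CPM in controls, a log2 fold change of -0.99 (SE 0.20, adjusted p 0.0622 by edgeR). Its 3 Dicer LKO libraries lay below the 3 controls, in the direction of the labels, but it missed the threshold of 0.05 used for all calls. The liver label was borne out by the 12 hepatocyte markers, which summed to 96000 to 97500 CPM in Dicer LKO livers and to 53400 to 96100 CPM in controls. Markers of other cells summed higher in the Dicer LKO livers than in controls for erythroid cells (1140 to 2140 against 284 to 381 CPM), bile duct cells (155 to 289 against 37.0 to 49.7 CPM), neutrophils (42.2 to 95.7 against 3.32 to 29.4 CPM), stellate cells and fibroblasts (587 to 659 against 417 to 486 CPM) and endothelial cells (499 to 634 against 369 to 464 CPM). Log2 fold changes were positive for 6 of 8 tested erythroid markers, 8 of 9 of bile duct cells and 10 of 10 of neutrophils. They were positive for 10 of 12 markers of stellate cells and fibroblasts and for 8 of 10 of endothelial cells. Of the 2 negative erythroid markers, 1 had an unadjusted p under 0.05 by edgeR. None of these marker genes was at 0 in all libraries. In whole tissue, a different number of cells of a type and a different amount of RNA per cell cannot be told apart, and the part of these cells in the members' values was not tested. Control replicate 3, the shallowest library, held 6230 CPM of skeletal muscle markers, whose other libraries summed to 1.28 to 4.82 CPM in Dicer LKO and to 4.60 to 6.00 CPM in the other controls. Nothing in the labels says that the 3 samples of a group came from separate animals, so p-values measure only the spread between these samples.

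None of the members changed by the test across all genes. After the filter on low counts, 31 of the 32 were tested, and 0 of 31 passed an adjusted p under 0.05 in edgeR's quasi-likelihood fit, adjusted by Benjamini-Hochberg over 14314 genes, where 1.29% of all genes passed. At an unadjusted p under 0.05 there were 9 members (29.0%), beside 21.0% of all genes tested. They were 4 with higher values in Dicer LKO, beside 8.88% of all genes, and 5 with lower values, beside 12.1% of all genes. DESeq2 called 3 members, Gadd45b, Fas and Mdm4, where it called 7.05% of all genes. limma's voom fit with sample weights called Zmat3 alone, where it called 5.01% of all genes. Without the filter on low counts edgeR called Fas alone, where 1.78% of all genes passed. The groups' libraries did not overlap for 8 of 31 members (25.8%), close to the 28.0% of all genes tested. Those 8 were Btg2, Fas, Apaf1 and Gadd45b, higher in Dicer LKO as 12.7% of all genes were, and Mdm4, Perp, Tigar and Pidd1, lower in Dicer LKO as 15.4% of all genes were.

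The sizes of the differences were close to those of other genes for most members. The median absolute log2 fold change was 0.26 over the 31 tested members and 0.26 over all genes tested. Absolute values of at least 1 were reached by 6 members (19.4%), against 10.3% of all genes. The signed median was 0.14 over the members and -0.01 over all genes, with 20 members positive and 11 negative. That sign depended on 1 library, since without Dicer LKO replicate 2 the median over the members was -0.09 and 15 of 31 were positive. Per length, the members were of low to moderate level: the mean TPM over all libraries lay above 10 for 4 of the 32, between 1 and 10 for 21 and below 1 for 7.

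**Figure D1:**
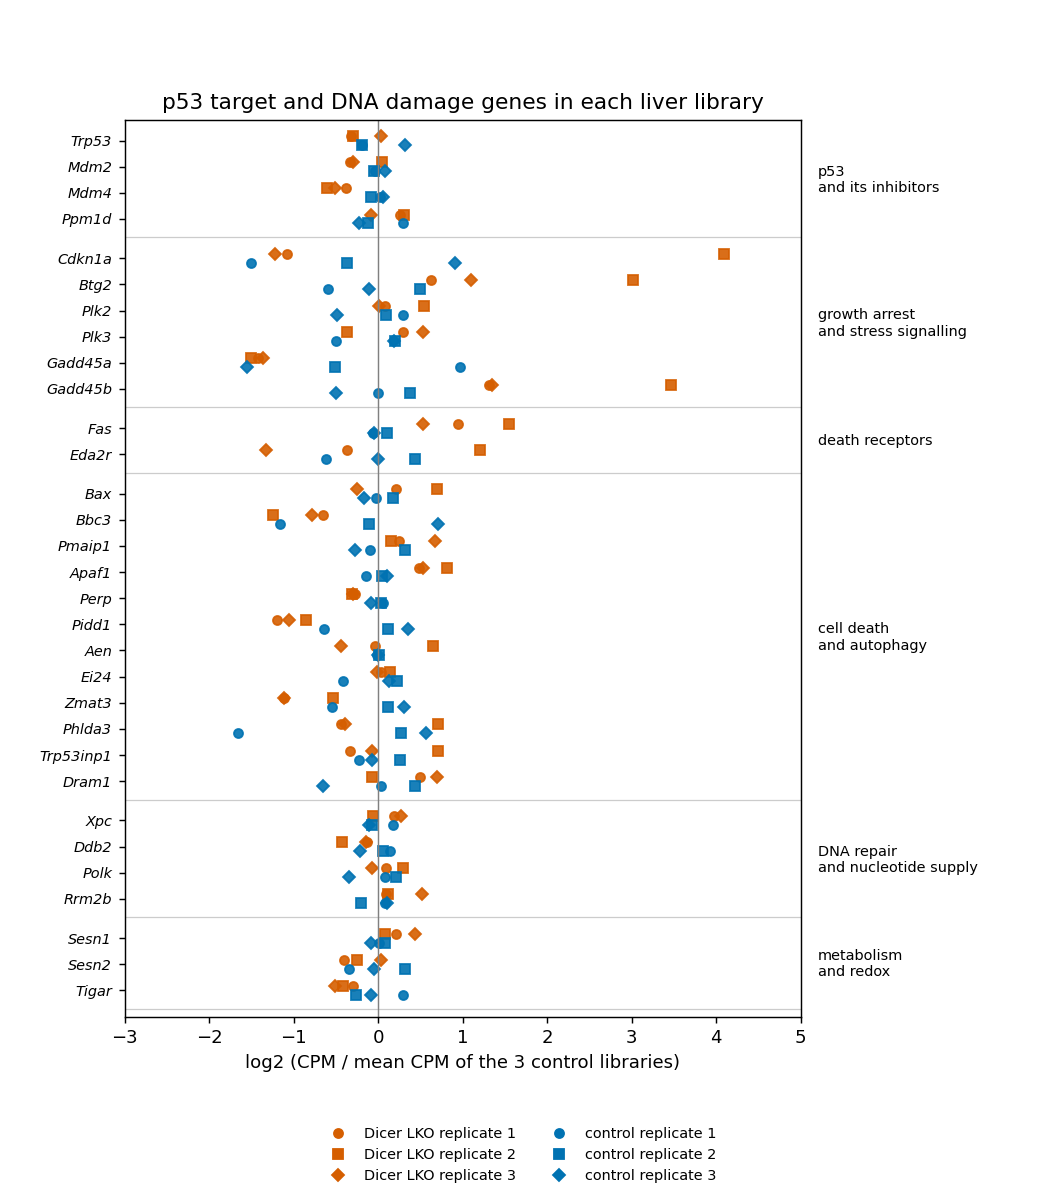
Each tested member's CPM in each library, as the log2 difference from the mean of the 3 control libraries (x axis), with members down the page by role; orange marks are Dicer LKO libraries and blue marks control libraries. Most members scatter about 0 in both groups. Dicer LKO replicate 2 lies well above the other libraries for Cdkn1a, Btg2 and Gadd45b. For Btg2 and Gadd45b the other Dicer LKO libraries also lie above every control.

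Trp53 and the genes that restrain it were at similar or lower levels in Dicer LKO livers. Trp53 (ENSMUSG00000059552.13, chromosome 11, 69580359 to 69591873, plus strand, GRCm38), the gene of p53, was at 7.61, 7.77 and 9.76 CPM in Dicer LKO livers, against 8.38, 8.36 and 11.9 CPM in controls. The ranges overlapped, and the highest library of each group was replicate 3. Its log2 fold change was -0.18 (SE 0.20, adjusted p 0.640 by edgeR). Mdm2 (ENSMUSG00000020184.15, chromosome 10, 117688875 to 117710758, minus strand), the ubiquitin ligase that p53 itself induces, was at 21.3, 27.8 and 21.9 CPM in Dicer LKO livers, against 26.2, 26.1 and 28.5 CPM in controls. Dicer LKO replicate 2 lay among the controls and the other two Dicer LKO libraries below them, with a log2 fold change of -0.19 (SE 0.14, adjusted p 0.505 by edgeR). In TPM, which corrects for transcript length, Mdm2 was at 6.62, 7.79 and 6.92 in Dicer LKO livers, against 9.56, 8.97 and 11.0 in controls. There the groups did not overlap. The length used for Mdm2 was itself longer in Dicer LKO livers, as given below, and a longer length lowers TPM at the same count. The TPM difference is thus not separate from the length difference. The share of all genes without overlap in TPM is not given here.

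Mdm4 (ENSMUSG00000054387.13, chromosome 1, 132959484 to 133030561, minus strand), the second inhibitor, was at 47.0, 40.3 and 42.9 CPM in Dicer LKO livers, against 62.2, 57.7 and 63.8 CPM in controls. Every Dicer LKO library lay below every control, with means of 43.4 ± 3.35 CPM in Dicer LKO and 61.3 ± 3.19 CPM in controls (SD, n = 3 each). The log2 fold change of -0.50 (SE 0.12) had an adjusted p of 0.0843 by edgeR and of 0.0271 by DESeq2. It stayed between -0.55 and -0.41 when each library was left out in turn. In TPM, Mdm4 was among the 5 most abundant members, at 7.85, 6.71 and 6.77 in Dicer LKO livers and 11.3, 11.7 and 14.1 in controls, again without overlap. Ppm1d, the phosphatase that switches p53 and its upstream kinases off, overlapped between the groups and had a log2 fold change of 0.17 (SE 0.21, adjusted p 0.701 by edgeR).

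The growth arrest genes held the widest differences and also the widest spread within a group. Cdkn1a (ENSMUSG00000023067.13, chromosome 17, 29090976 to 29100727, plus strand) encodes p21, the cyclin-dependent kinase inhibitor through which p53 stops the cell cycle. It was at 0.963, 34.8 and 0.876 CPM in Dicer LKO livers, against 0.721, 1.58 and 3.83 CPM in controls, from 21, 730 and 22 counts in Dicer LKO and 16, 33 and 60 in controls. Dicer LKO replicate 2 was 37.8-fold above the mean of the other two Dicer LKO libraries, which lay within the range of the controls, and 9.09-fold above the highest control. The log2 fold change was therefore 2.61 with an SE of 1.66 (adjusted p 0.435 by edgeR), and it was -1.08 (adjusted p 0.472) without that library. DESeq2 gave Cdkn1a no adjusted p. Of its annotated exons, 273 bases overlap AC167363.2 on the opposite strand.

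Btg2 (chromosome 1, 134075170 to 134079120, minus strand), an antiproliferative cofactor of mRNA deadenylation, was at 16.9, 88.3 and 23.4 CPM in Dicer LKO livers, against 7.26, 15.5 and 10.2 CPM in controls. All Dicer LKO libraries were above the controls, replicate 1 narrowly and replicate 2 far above the rest. Its log2 fold change was 1.96 (SE 0.71, adjusted p 0.201 by edgeR) and 0.92 without Dicer LKO replicate 2. Gadd45b (chromosome 10, 80930073 to 80932204, plus strand) is a stress sensor that acts on the p38 and JNK kinase cascades. It was at 2.02, 9.01 and 2.07 CPM in Dicer LKO livers, against 0.811, 1.06 and 0.574 CPM in controls. The groups did not overlap, and replicate 2 was again the highest Dicer LKO library. Its log2 fold change of 2.39 (SE 0.68) had an adjusted p of 0.120 by edgeR and 0.00555 by DESeq2, and without Dicer LKO replicate 2 it was 1.35 (adjusted p 0.167 by edgeR).

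Gadd45a, the family member that p53 induces directly, was at 1.61, 1.52 and 1.67 CPM in Dicer LKO livers, against 8.47, 3.03 and 1.47 CPM in controls. Here the Dicer LKO libraries were close together and the controls spread widely, with control replicate 3 below all of Dicer LKO. The log2 fold change of -1.44 (SE 0.59, adjusted p 0.222 by edgeR) was -0.50 without control replicate 1. Of its annotated exons, 337 bases overlap those of E230016M11Rik on the opposite strand. Since the strand setting is not given in the sources used here, reads of the 2 genes cannot be told apart there. The same limit holds for Cdkn1a above. It also holds for exons of Rrm2b (734 bases), Ddb2 (652), Ei24 (324), Tigar (122) and Plk3 (84). The polo-like kinases Plk2 and Plk3, which p53 induces at cell cycle checkpoints, differed little, with log2 fold changes of 0.22 (SE 0.24) and 0.20 (SE 0.27). Plk3 was the more abundant per length, at 13.3, 7.83 and 16.1 TPM in Dicer LKO livers and 8.35, 13.3 and 13.7 TPM in controls.

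**Figure D2:**
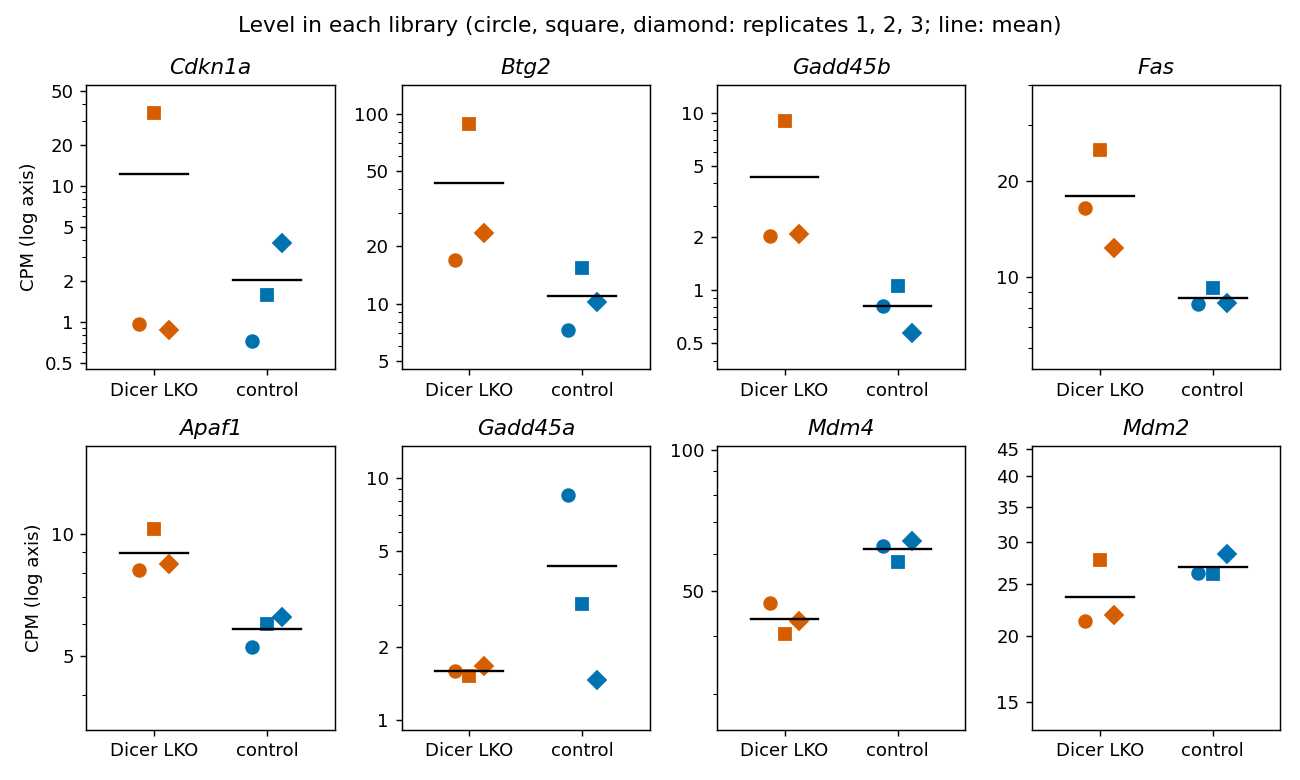
CPM on a log axis in each library for 8 members, with Dicer LKO (orange) left of control (blue), circles, squares and diamonds for replicates 1, 2 and 3, and a line at the mean. Dicer LKO replicate 2 is the highest library for Cdkn1a, Btg2, Gadd45b, Fas and Apaf1, while Mdm4 is lower in all 3 Dicer LKO libraries than in any control.

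Of the 3 receptors that pass death or survival signals into the cell, Fas had the smallest adjusted p of all members. Fas (ENSMUSG00000024778.12, chromosome 19, 34290666 to 34327772, plus strand), the receptor of Fas ligand and a main trigger of hepatocyte apoptosis, was at 16.5, 25.1 and 12.3 CPM in Dicer LKO livers, against 8.25, 9.22 and 8.29 CPM in controls. All 3 Dicer LKO libraries were above the controls, which were close together. The means were 18.0 ± 6.48 CPM in Dicer LKO and 8.59 ± 0.550 CPM in controls (SD, n = 3 each), and the log2 fold change was 1.06 (SE 0.25, adjusted p 0.0823 by edgeR and 0.00828 by DESeq2). It was between 0.79 and 1.28 when each library was left out in turn. Fas is also expressed by lymphocytes and other immune cells. Summed markers of T and NK cells were 3.14 to 6.29 CPM in Dicer LKO and 2.87 to 4.32 CPM in controls, those of B and plasma cells 77.3 to 302 CPM and 29.1 to 79.9 CPM, and those of macrophages 602 to 775 CPM and 293 to 637 CPM. Their part in the Fas difference was not tested. Eda2r, a receptor of ectodysplasin A2, overlapped widely at 0.637 to 3.67 CPM in Dicer LKO and 1.04 to 2.16 CPM in controls. Tnfrsf10b, the mouse receptor of the death ligand TRAIL, was below the filter, with 3, 11 and 9 counts in Dicer LKO libraries and 3, 7 and 2 counts in controls.

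The 12 genes of cell death and autophagy did not move one way, with 8 positive and 4 negative log2 fold changes and a median of 0.10. Apaf1, the scaffold on which cytochrome c assembles the apoptosome, was at 8.16, 10.3 and 8.41 CPM in Dicer LKO livers, against 5.27, 6.00 and 6.25 CPM in controls. The groups did not overlap, and the log2 fold change was 0.62 (SE 0.17, adjusted p 0.105 by edgeR), between 0.55 and 0.69 with each library left out. Perp, a membrane protein of desmosomes that p53 induces, was at 52.1, 50.9 and 51.3 CPM in Dicer LKO livers, against 65.6, 64.3 and 59.1 CPM in controls. Its Dicer LKO libraries were nearly equal and all below the controls, with a log2 fold change of -0.29 (SE 0.11, adjusted p 0.199 by edgeR). Pidd1, the scaffold that activates caspase-2, was at 0.826, 1.05 and 0.916 CPM in Dicer LKO livers, against 1.22, 2.07 and 2.42 CPM in controls. These libraries did not overlap either, and the log2 fold change was -1.02 (SE 0.34, adjusted p 0.152 by edgeR).

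Zmat3, an RNA-binding protein that p53 induces, was at 3.53, 5.29 and 3.55 CPM in Dicer LKO livers, against 5.23, 8.31 and 9.44 CPM in controls. Only Dicer LKO replicate 2 exceeded a control, replicate 1, by a small margin. Its log2 fold change of -0.89 (SE 0.28) had an adjusted p of 0.133 by edgeR and 0.0391 by limma's voom fit. The BH3-only genes that start mitochondrial apoptosis stayed without a call: Bbc3, which encodes PUMA, had a log2 fold change of -0.86 (SE 0.45, adjusted p 0.317), and Pmaip1, which encodes NOXA, one of 0.37 (SE 0.34, adjusted p 0.576). Bax, the pore-forming effector that these proteins set off, was at 10.1, 14.2 and 7.37 CPM in Dicer LKO livers and 8.56, 9.89 and 7.78 CPM in controls. Dicer LKO libraries thus gave both the highest and the lowest Bax value, with a log2 fold change of 0.27 (SE 0.24, adjusted p 0.575 by edgeR). A stretch of 192 bases of its exons is also annotated to Gm45808 on the same strand, so reads there could be split.

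Ei24, an endoplasmic reticulum protein needed for autophagy, was the most abundant member per length, at 30.8, 31.5 and 32.4 TPM in Dicer LKO livers and 24.6, 37.2 and 39.7 TPM in controls. Perp and Trp53inp1 followed it. Perp was at 20.2, 18.3 and 20.6 TPM in Dicer LKO livers and 27.4, 25.7 and 25.3 TPM in controls. Trp53inp1, a nuclear protein that promotes p53 phosphorylation and takes part in autophagy, was at 14.0, 26.5 and 17.3 TPM in Dicer LKO livers and 19.0, 24.1 and 19.5 TPM in controls, so its groups overlapped. In the rest of this group, Aen (an apoptosis-enhancing nuclease), Dram1 (a lysosomal regulator of autophagy) and Phlda3 (an inhibitor of Akt), the groups overlapped in CPM and log2 fold changes were 0.13, 0.40 and 0.08.

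DNA repair genes of the list were the least different. Xpc and Ddb2, which recognise ultraviolet and other bulky lesions for nucleotide excision repair, Polk, a translesion polymerase, and Rrm2b, the p53-inducible subunit of ribonucleotide reductase, had log2 fold changes between -0.23 and 0.26. All 4 overlapped between the groups, and their adjusted p-values by edgeR were 0.510 to 0.812. Of the 3 metabolic genes, Sesn1 and Sesn2, the sestrins that restrain the kinase mTORC1 and limit oxidative damage, overlapped between groups with log2 fold changes of 0.25 and -0.19. Tigar, a phosphatase that lowers glycolytic flux, was at 8.30, 7.62 and 7.13 CPM in Dicer LKO livers, against 12.4, 8.50 and 9.63 CPM in controls. Its groups did not overlap, although Dicer LKO replicate 1 was close to control replicate 2, and the log2 fold change was -0.41 (SE 0.18, adjusted p 0.250 by edgeR).

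The member genes were unevenly spread over the libraries. Dicer LKO replicate 2 held the highest CPM of 13 of the 31 tested members (41.9%), where it was the highest library for 19.8% of all genes tested. Those 13 were Cdkn1a, Bax, Trp53inp1, Phlda3, Eda2r, Plk2, Btg2, Fas, Aen, Polk, Apaf1, Ppm1d and Gadd45b. Dicer LKO replicate 1 was the highest for 0 members and for 7.47% of all genes, and Dicer LKO replicate 3 for 6 members (19.4%, against 14.9% of all genes). Control replicates 1, 2 and 3 were the highest for 4, 2 and 6 members. The 6 of control replicate 3, the library with muscle transcripts, were Mdm2, Mdm4, Bbc3, Trp53, Zmat3 and Pidd1. Dicer LKO replicate 2 also had the highest sum of acute phase genes, the plasma proteins and factors that the liver makes in inflammation, which summed to 58200, 130000 and 47100 CPM in Dicer LKO livers and to 21500, 54300 and 14100 CPM in controls. Summed proliferation genes were 149 CPM in Dicer LKO replicate 2, 106 and 101 CPM in the other two Dicer LKO libraries and 78.3 to 95.0 CPM in controls. The part of either in the members' values was not tested.

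**Figure D3:**
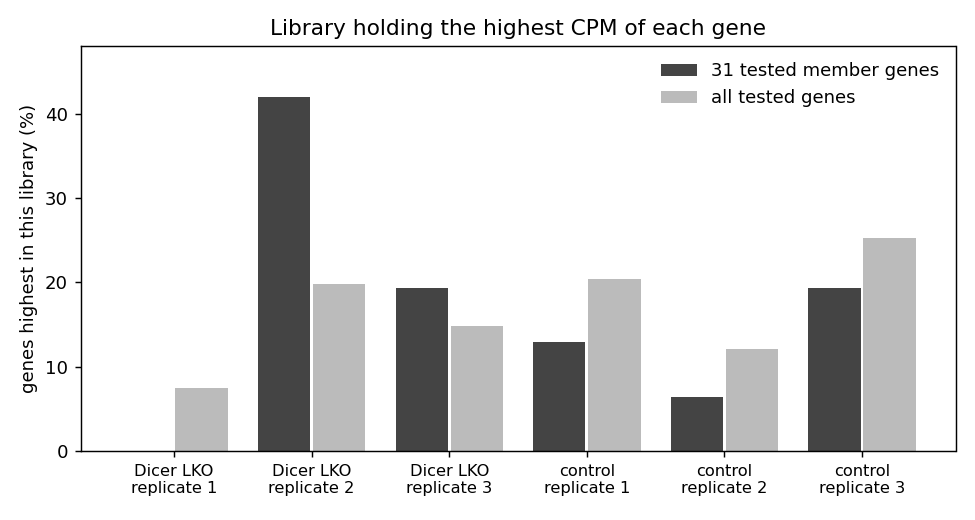
Share of genes (y axis, percent) whose highest CPM fell in each library, for the 31 tested members (dark bars) and for all genes tested (light bars). Dicer LKO replicate 2 holds 41.9% of the members and 19.8% of all genes.

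The deposited transcript length of a gene is weighted by the estimated share of each of its isoforms, so it reads the isoform mix apart from the gene's total. It varied between libraries for 23 members and was constant for the other 9. The groups did not overlap for 4 of those 23, while 14.6% of the 10474 tested genes with a varying length did not. They were 2 longer in Dicer LKO, beside 8.61% of such genes, and 2 shorter, beside 6.01%. Mdm2 was 2384, 2446 and 2430 bases long in Dicer LKO livers, against 2206, 2237 and 2146 bases in controls. All Dicer LKO lengths exceeded the control lengths, with means of 2420 ± 32.4 bases in Dicer LKO and 2196 ± 46.5 bases in controls (SD, n = 3 each), a difference of 10.2%. Trp53inp1 was 5071, 5143 and 5119 bases long in Dicer LKO livers, against 4382, 4621 and 4874 bases in controls, again without overlap and with a difference of 10.5%. Bax was shorter in Dicer LKO by 1.74% and Xpc by 0.716%. An exact permutation test (two-sided) gave each of these 4 genes its minimum for 3 libraries against 3, a p of 0.1. The lengths are model estimates from the reads, and the isoforms behind them were not resolved.

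**Figure D4:**
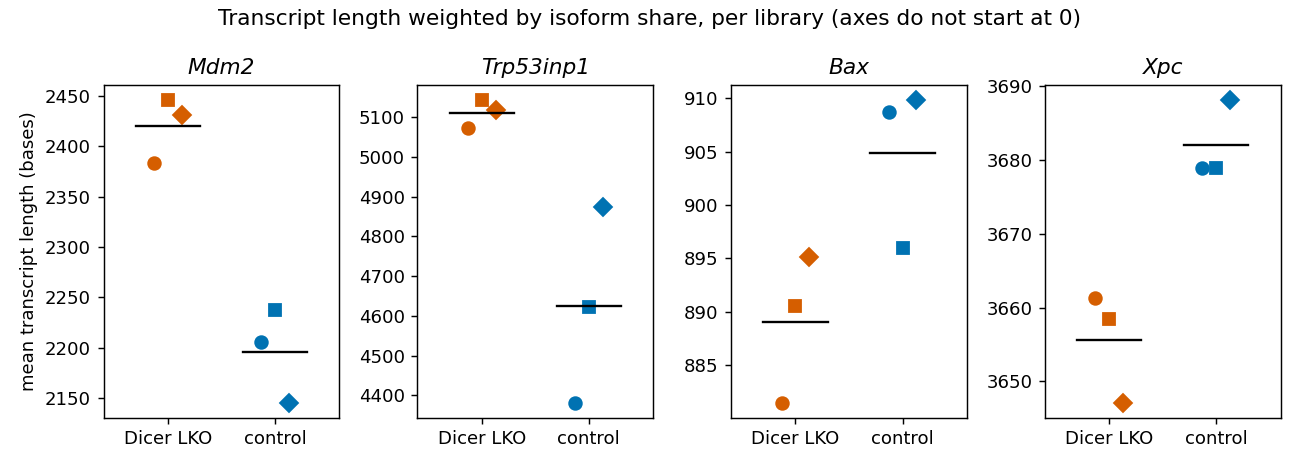
Isoform-weighted transcript length (y axis, bases, not starting at 0) of Mdm2, Trp53inp1, Bax and Xpc in each library, with Dicer LKO (orange) left of control (blue) and a line at the mean. Mdm2 and Trp53inp1 are longer and Bax and Xpc shorter in all 3 Dicer LKO libraries than in any control.

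p53 binds DNA as a tetramer at a pair of similar 10-base elements, here called p53 decamers, which lie next to each other or a short spacer apart. RefSeq promoter windows (GRCm38.p6, 250 bases before to 50 after a gene's start) were at hand for 24 members and were searched for the consensus decamer, which reads the same on both strands. At least 1 decamer was present in the windows of 10 of the 24 members (41.67%) and of 8.34% of 10145 tested genes. A pair with a spacer of at most 13 bases was present in Cdkn1a alone among the members, and in 5 of the 10145 tested genes (0.05%). The stretches around the decamers of 5 members are shown because they place the consensus motif beside the values above. A decamer in a window does not by itself make a gene a p53 target. Capitals mark the decamers and lower case the bases around them, read on the gene's strand.
Cdkn1a, chr17:29090901-29090942, plus strand: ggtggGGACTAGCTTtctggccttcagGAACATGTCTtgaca
Mdm2, chr10:117710930-117710949, minus strand: gatagGAACTTGCCTagcga
Bax, chr7:45467085-45467104, minus strand: atcccAGGCAAGCTTtgaac
Trp53, chr11:69580279-69580298, plus strand: cggaaGGACTTGCCCttact
Gadd45a, chr6:67037433-67037452, minus strand: gctgaGGGCTAGCCCcatat

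The values of members with and without a decamer lay side by side. The 10 with a decamer had 7 positive and 3 negative log2 fold changes with a median of 0.12, and the 14 without had 9 positive and 5 negative with a median of 0.20. In Cdkn1a the 2 decamers lie 12 bases apart and just upstream of the start of the transcript. The 10 bases directly after the second decamer miss the consensus only at their first letter, and the exact search did not count them. Of the 5 genes shown, Cdkn1a and Bax were highest in Dicer LKO replicate 2, whereas Mdm2, Trp53 and Gadd45a were highest in a control library. Of the other members with a decamer, Aen, Polk and Ppm1d were also highest in Dicer LKO replicate 2. Sesn1 was highest in Dicer LKO replicate 3 and Ei24 in control replicate 2. A match to the motif is a description of the letters only, and the windows leave out most enhancers and first introns.

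Dicer makes mature miRNAs, so the members' 3′ untranslated regions were also read for sites of 6 miRNAs that are abundant in liver or tied to the p53 pathway. Each site is the 7-letter complement of the miRNA's seed (bases 2 to 8), searched on the transcript strand of the longest annotated 3′ untranslated region. The mature sequences are from RefSeq, and capitals mark the seed.
mmu-let-7a-5p: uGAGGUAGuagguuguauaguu
mmu-miR-17-5p: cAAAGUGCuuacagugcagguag
mmu-miR-34a-5p: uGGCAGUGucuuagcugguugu
mmu-miR-125b-5p: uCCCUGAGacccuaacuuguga
mmu-miR-192-5p: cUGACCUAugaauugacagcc
mmu-miR-22-3p: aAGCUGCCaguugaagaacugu

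Sites were about as frequent in the members as in other genes for most of these seeds. The let-7 site CTACCTC was present in 4 of 31 members (12.9%) and in 11.92% of the 12472 tested genes with an annotated region. The corresponding shares were 9.68% and 15.02% for GCACTTT of the miR-17 family, 19.35% and 19.09% for CACTGCC of the miR-34 family, 16.13% and 16.93% for CTCAGGG of the miR-125 family and 9.68% and 7.42% for TAGGTCA of the miR-192 family. GGCAGCT, the miR-22 site, was present in 9 members (29.03%) and in 17.66% of tested genes. The regions had a median length of 1480 bases in the members and 1364.5 bases in all tested genes. The sites below are shown for members described above, with the bases that match the seed in capitals and coordinates on GRCm38.
Fas, let-7, chr19:34327318-34327344, plus strand: ggagtgaaaaCTACCTCagttccagcc
Mdm4, let-7, chr1:132986826-132986852, minus strand: ctacccgtttCTACCTCagtttgatgt
Cdkn1a, miR-17, chr17:29099819-29099845, plus strand: gacctgaataGCACTTTggaaaaatga
Trp53inp1, miR-17, chr4:11174217-11174243, plus strand: gaacagcacaGCACTTTgccaaaaaac
Mdm4, miR-34, chr1:132988096-132988122, minus strand: tggaattttgCACTGCCatagggaacg
Btg2, miR-125, chr1:134076903-134076929, minus strand: ccctctcttaCTCAGGGgcattcaagc
Mdm2, miR-22, chr10:117688997-117689023, minus strand: cggcagcctgGGCAGCTtcagtcccga

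Genes that carry the same let-7, miR-17 or miR-34 site had different values. Fas, Mdm4, Aen and Pidd1 hold a let-7 site, and their log2 fold changes were 1.06, -0.50, 0.13 and -1.02. The miR-17 site is shared by Cdkn1a, Trp53inp1 and Sesn2. Cdkn1a and Trp53inp1 were highest in Dicer LKO replicate 2 and Sesn2 in control replicate 2. The log2 fold changes of Cdkn1a, Trp53inp1 and Sesn2 were 2.61, 0.17 and -0.19 with all libraries. Without Dicer LKO replicate 2 they were -1.08, -0.16 and -0.12. For the miR-34 site, log2 fold changes were 0.13 for Aen, 0.27 for Bax, 0.05 for Ei24, 0.26 for Rrm2b, 0.25 for Sesn1 and -0.50 for Mdm4. Mdm4 held a match to 4 of the 6 seeds (let-7, miR-34, miR-192 and miR-22) and was lower in every Dicer LKO library than in any control. Its region is 5436 bases long, against the members' median of 1480 bases, and a longer region has more room for matches. miRNA levels were not measured in these data, and the part of these sites in the members' values was not tested.

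Other genes of the p53 pathway and of DNA repair, taken as lists from general knowledge, gave 1 call among 235 tested by edgeR, where 1.29% of all genes passed. Among 30 further reported p53 targets, edgeR called 0, DESeq2 3 (Casp1, Ddit4 and Lpin1) and limma's voom fit 0. Of these 30, 4 (13.3%, beside 21.0% of all genes) had an unadjusted p under 0.05, 11 (36.7%, beside 48.6% of all genes) were positive and the median log2 fold change was -0.10. Ddit4, an inhibitor of mTORC1 that is induced by stress and glucocorticoids, was at 7.61, 33.5 and 13.5 CPM in Dicer LKO livers, against 1.67, 2.88 and 2.74 CPM in controls. Every Dicer LKO library was above the controls and replicate 2 was again the highest, with a log2 fold change of 2.91 (SE 0.60, adjusted p 0.0777 by edgeR). Casp1, the caspase of inflammasomes, had a log2 fold change of 1.67 (SE 0.38, adjusted p 0.0773 by edgeR) and no overlap between the groups.

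Among 24 members of the p53 family and regulators of p53, edgeR called 0, while DESeq2 and limma's voom fit each called 4 (Crebbp, Ep300, Hipk2 and Ube4b). Of these 24, 8 (33.3%) had an unadjusted p under 0.05, all with lower values in Dicer LKO, beside 12.1% of all genes. In all, 18 (75.0%) were negative, beside 51.4% of all genes, with a median of -0.20. The acetyltransferase Ep300, a p53 coactivator, was at 28.2, 25.7 and 26.3 CPM in Dicer LKO livers, against 37.9, 51.2 and 63.8 CPM in controls. Its groups were well apart and the controls more widely spread, with a log2 fold change of -0.93 (SE 0.19, adjusted p 0.0636 by edgeR). Its relative Crebbp had a log2 fold change of -0.99 (SE 0.23, adjusted p 0.0817 by edgeR). For both, control replicate 3, the shallowest library, was the highest.

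Genes of repair and apoptosis gave 0 calls by edgeR in each list, and the share at an unadjusted p under 0.05, which was 21.0% over all genes, lay between 7.69% and 17.4% in these lists and at 26.9% among paralogs of members. DESeq2 called Brca1, Rbbp8, Bcl2a1b and the member paralog Phlda1, limma's voom fit called Rbbp8 and Bcl2a1b, and neither called a gene of the 2 lists on excision, translesion and mismatch repair. For 23 damage sensors and checkpoint genes the median log2 fold change was 0.07 and 4 had an unadjusted p under 0.05, among them Brca1 (1.47, SE 0.39, adjusted p 0.101). For 25 genes of nucleotide excision and translesion repair the median was 0.01 and 2 had an unadjusted p under 0.05, Rev3l (-0.36, adjusted p 0.159) and Cetn2 (0.40, adjusted p 0.216). For 26 genes of break repair it was -0.06 with 2 at an unadjusted p under 0.05, Rbbp8 (0.75, adjusted p 0.0863) and Dclre1c (-0.54, adjusted p 0.152). For 22 genes of base excision and mismatch repair it was 0.03 with 3, among them Pms1 (-0.58, adjusted p 0.0962) and Mgmt (-0.59, adjusted p 0.117). Apoptosis genes outside the members, 29 in all, had a median of 0.19 and 3 at an unadjusted p under 0.05, among them Bcl2a1b (1.98, adjusted p 0.0751) and Bok (0.81, adjusted p 0.109). For 26 paralogs of members, which include Bok, the median was 0.21 with 7 at an unadjusted p under 0.05, among them Pfkfb1 (0.47, adjusted p 0.106).

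The single call in these lists was Cdkn2c, which encodes the cyclin-dependent kinase inhibitor p18 and belongs to the 16 tested genes of senescence and cell cycle inhibition. It rose to 9.17, 7.19 and 12.2 CPM in Dicer LKO livers, against 2.75, 3.51 and 1.53 CPM in controls. The groups did not overlap, and the log2 fold change was 1.86 (SE 0.33, adjusted p 0.0470 by edgeR). The edgeR call was narrow. Its adjusted p was 0.0571 to 0.144 when each library was left out in turn and 0.0580 with library totals in place of TMM factors. In limma's fits on log2(TPM + 1) and log2(TPM + 0.1) it was 0.0567 and 0.0520. The adjusted p stayed under 0.05 by DESeq2 (3.21e-05) and by limma's voom fit (0.0321). It did so too in edgeR without the filter on low counts (0.0150) and with counts thinned to the shallowest library (0.0438). Unlike Cdkn1a, Cdkn2c was not highest in Dicer LKO replicate 2. Proliferation genes had 0 calls by edgeR and 1 by DESeq2 (Top2a) among 27 tested, and 8 (29.6%) at an unadjusted p under 0.05, all with higher values in Dicer LKO, beside 8.88% of all genes. A positive log2 fold change was found for 26 of the 27 (96.3%), beside 48.6% of all genes, with a median of 0.67. They include Top2a (1.29, SE 0.37, adjusted p 0.117) and Cenpf (1.63, SE 0.51, adjusted p 0.137). Over all these lists DESeq2 called 14 of 233 genes (6.01%), beside 7.05% of all genes, and limma's voom fit 8 of 235 (3.40%), beside 5.01% of all genes.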

How the data were processed

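The members, the gene lists and the miRNAs were chosen with earlier results of these data known, and Apaf1, Tigar, Gadd45a, Zmat3 and Bax were named in full after their values were seen. Otherwise full values were given for Trp53, Mdm2 and Cdkn1a, for the 5 members with the highest mean TPM and for members with an absolute log2 fold change of at least 1 whose groups did not overlap. Up to 2 genes with the smallest unadjusted p, or the called ones, were named from each list.

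For each sample the authors deposited, per the file headers, RSEM's columns: an expected count (reads assigned to a gene by a model, not normalized), a TPM value (corrected for effective transcript length and scaled to the same total) and an isoform-weighted transcript length. The tools named in the submitters' processing notes are CASAVA and Bowtie, and the build named there is hg19, which is human, while the gene identifiers are those of mouse. Neither the mouse annotation nor the strand setting is given in the sources used here. Frozen liver was the source of the Trizol RNA, per the labels' protocols.

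The expected counts were rounded, of which 96.05% to 96.48% per library were whole already. They were filtered with filterByExpr, scaled with TMM and tested with edgeR 4.0.16 (glmQLFit, robust, and glmQLFTest; R 4.3.3) on genotype alone, with a Benjamini-Hochberg adjusted p under 0.05 over 14314 genes as a call. Each SE was taken as the size of the log2 fold change over the square root of F. Counting error limits members of low count most, and RSEM's model divides reads that match several similar genes among them. DESeq2 1.42.0 and limma 3.58.1 (voom with sample weights, and log2(TPM + 1)) were alternatives. Groups were taken from the sample titles and genotypes, and the libraries were all distinct. Coordinates and untranslated regions are from GENCODE M21 (GRCm38), which held 99.56% of the identifiers. Promoter windows and miRNAs are from RefSeq (GRCm38.p6). The miR-122 family is not reported here.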

Additional observations from a re-analysis of the deposited data

How the results depend on the processing

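Over 17 alternative fits, no member passed an adjusted p under 0.05 in edgeR other than Fas without the filter on low counts (1.07, adjusted p 0.0421). That filter setting called 1 member, DESeq2 called 3 (Mdm4 -0.49, Fas 1.07, Gadd45b 2.42) and limma's voom fit 1 (Zmat3 -1.06). Genes called numbered 185 and were 103 with library totals, 422 without the filter, 1114 by DESeq2, 717 by voom, 67 on log2(TPM + 1), 74 on log2(TPM + 0.1) and 44 without both Dicer LKO replicate 2 and control replicate 3. With 1 library left out the number lay between 23 (without control replicate 3) and 389 (without control replicate 1). Calls in the pathway lists were 1, against 0 with library totals, on either TPM scale and without both libraries, 4 without the filter, 14 by DESeq2 and 8 by voom, and 0 to 4 with 1 library left out. The TPM + 0.1 setting and the joint removal of 2 libraries were chosen after seeing the data.

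The median log2 fold change over members was 0.14, and became 0.027 with library totals, -0.057 by voom, -0.0059 on log2(TPM + 1), -0.0057 on log2(TPM + 0.1), -0.14 without both libraries and -0.092 to 0.19 with each library left out. Library totals moved the median of all genes by -0.12. The sign turned for these members. With library totals it did for Phlda3 (-0.076), Aen (-0.013), Ei24 (-0.077) and Polk (-0.013). Sample weights by voom were 3.53, 0.643 and 1.22 for Dicer LKO and 0.463, 1.49 and 0.523 for controls. With them the sign turned for Cdkn1a (-0.15), Trp53inp1 (-0.25), Phlda3 (-0.24), Eda2r (-0.56), Aen (-0.057), Ei24 (-0.048) and Polk (-0.014). On log2(TPM + 1) it did for Trp53inp1 (-0.15), Phlda3 (-0.017), Aen (-0.067), Rrm2b (-0.0017), Ei24 (-0.069) and Polk (-0.0059). On log2(TPM + 0.1) it did for Trp53inp1 (-0.16), Aen (-0.084), Rrm2b (-0.0057), Ei24 (-0.070) and Polk (-0.006). Without both libraries it did for Cdkn1a (-0.32), Bax (-0.081), Trp53 (0.052), Trp53inp1 (-0.24), Phlda3 (-0.016), Eda2r (-0.78), Plk2 (-0.15), Aen (-0.23), Polk (-0.14) and Ppm1d (-0.011). With each library left out the ranges that crossed 0 were -1.08 to 3.42 for Cdkn1a, -0.16 to 0.37 for Trp53inp1, -0.36 to 0.46 for Phlda3, -0.73 to 0.62 for Eda2r, -0.18 to 0.35 for Aen, -0.12 to 0.19 for Ei24, -0.34 to 0.020 for Sesn2, -0.30 to 0.025 for Trp53 and -0.019 to 0.25 for Polk. Non-overlapping transcript lengths numbered 4, and 5 to 7 with each library left out. Groups of fewer libraries separate more easily, and the share over all genes was not counted for those settings. The rise therefore cannot be read as a result about the members. Dicer1 was at 50.3% of the control mean and at 46.1% to 46.2% under other scalings. The cause of these turns was not tested.

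With the replicate number as a block, 245 genes and 0 members were called, and Eda2r was at -0.021 against 0.20. The pathway lists held 1 call there, Ddit4 (adjusted p 0.0166), while Cdkn2c had an adjusted p of 0.0729. Same-numbered libraries had deviations from their group means that correlated at 0.109, 0.065 and -0.0964. Libraries with different numbers correlated at -0.162 to 0.105. With so few libraries, these values cannot tell whether the numbers pair the samples.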

Other observations

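A pair of further gene lists was chosen after the members' values had been seen. Acute phase genes were positive for 20 of 20, at a median log2 fold change of 1.45, and 1 was called by edgeR, Cebpd, a transcription factor of the acute phase response. Cebpd rose to 16.4, 30.8 and 25.0 CPM in Dicer LKO livers, against 6.99, 8.07 and 4.59 CPM in controls. Saa1, the acute phase serum amyloid protein, was at 1837, 8448 and 1589 CPM in Dicer LKO livers, against 28.8, 2911 and 10.1 CPM in controls, so control replicate 2 lay within the range of Dicer LKO. Among immediate-early genes, the first to be transcribed after a stimulus, which include stress responders such as Fos, 7 of 18 were positive, with a median of -0.17. Their only call was Klf6, a zinc finger transcription factor, at 21.9, 20.8 and 20.8 CPM in Dicer LKO livers and 10.4, 12.7 and 11.7 CPM in controls (log2 fold change 0.87). Their summed level was 181, 275 and 207 CPM in Dicer LKO livers and 236, 240 and 247 CPM in controls.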
